A study of Mus musculus with 13 samples.

Results

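Blood stem and progenitor cells are run by a small set of transcription factors that bind enhancers together and hold the undifferentiated state. A group of 7 of them, Runx1, Gata2, Tal1, Lyl1, Lmo2, Erg and Fli1, is often called the heptad. Here the 7 genes were followed together with Myb and Nfe2, which are also used in progenitors and in megakaryocyte and red cell development. All 9 genes were found by symbol among the 24328 genes of the deposited tables and were chosen by name.

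The data are 13 mouse RNA-seq libraries from bone marrow. Mature leukemia cells (mAML) and leukemia stem cells (LSC), both labelled as tumor with the fusion gene MLL-AF10 named in the protocols, and wild-type granulocyte-monocyte progenitors (GMP) had 1 library each. A-485 is a small molecule that blocks the catalytic site of the histone acetyltransferases p300 and CBP. LSC under A-485 were sampled at 0, 8, 24, 48 and 72 h, with 2 libraries per time. The 0 h libraries were labelled untreated, no vehicle control at the later times was among the samples, and neither the dose nor the strain and age of the mice is given in the labels. The protocols describe the leukemia cells as cultured with serum and WEHI-conditioned medium. The labels do not say that the 2 libraries of a time came from separate cultures, so p-values measure the spread between these libraries, which may be technical.

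Several properties of the libraries stand beside the results. Total expected counts were 47257642 in mAML, 40468515 in LSC and 24532508 in GMP, and 6467764 to 9763276 in the time course. The mean transcript length per count was 3299 to 3793 nt in treated libraries, against 3115 to 3128 nt at 0 h, and the scaling factors of edgeR (TMM) were 1.03 to 1.07 in treated libraries, against 0.83 at 0 h. The single LSC library and the 0 h LSC libraries share a cell label but stand apart. Tal1 was at 22.41 and 18.83 TPM (a level scaled for transcript length and library depth) at 0 h and at 0.03 TPM in the single LSC library. Itga2b, a megakaryocyte integrin, was at 146.77 and 120.54 TPM at 0 h and at 0.19 TPM in the single LSC library. The 9 erythroid markers summed to 3390 TPM in mAML, 7.9 TPM in LSC and 255 TPM in GMP, with 4, 2 and 5 of them at 1 TPM or more, and in mAML all 10 measured T and NK cell genes reached 1 TPM, against 1 of 10 in LSC and in GMP. Hoxa9, an MLL-fusion target, was at 51.74 TPM in mAML and 84.89 TPM in LSC, against 7.58 TPM in GMP. Kit, the stem cell factor receptor, was at 0.63 TPM in mAML and 93.35 TPM in LSC, against 112.56 TPM in GMP. Time-course and single libraries were not tested against each other.

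The factors work as complexes. Tal1 and Lyl1 are basic helix-loop-helix proteins that bind E-box sequences with an E protein. Lmo2 is a bridging protein that does not bind DNA itself and holds them to Gata2, in a complex with Ldb1. Runx1, Erg and Fli1 bind RUNX and ETS sites nearby. Many of their enhancers are acetylated by p300 and CBP, and Myb is known to bind the KIX domain of both proteins. RefSeq promoters are shown for 3 members with different time courses under A-485: Runx1, which was lower at 8 h and high again later, Tal1, the member called higher than at 0 h, and Lyl1, which stayed lower at every treated time. Each window runs from 250 bases before to 50 bases after an annotated start on GRCm38.p6, a newer build than the mm9 named for the counts, so only the sequence is used. Capitals mark every match, on either strand, to 5 short motifs. GATAA stands for a site of the GATA factors. The E-box searched was CAGATG. For ETS factors it was GGAAGT. The letters for RUNX proteins were TGNGGT. For MYB they were AACTG.
Runx1, chr16:92826025-92826324, minus strand: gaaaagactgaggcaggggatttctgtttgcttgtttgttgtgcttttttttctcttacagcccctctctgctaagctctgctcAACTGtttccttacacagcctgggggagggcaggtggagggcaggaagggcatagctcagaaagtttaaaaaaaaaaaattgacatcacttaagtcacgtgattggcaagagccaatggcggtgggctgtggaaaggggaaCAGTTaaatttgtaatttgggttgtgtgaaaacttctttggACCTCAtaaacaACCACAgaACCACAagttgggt
Tal1, chr4:115056176-115056475, plus strand: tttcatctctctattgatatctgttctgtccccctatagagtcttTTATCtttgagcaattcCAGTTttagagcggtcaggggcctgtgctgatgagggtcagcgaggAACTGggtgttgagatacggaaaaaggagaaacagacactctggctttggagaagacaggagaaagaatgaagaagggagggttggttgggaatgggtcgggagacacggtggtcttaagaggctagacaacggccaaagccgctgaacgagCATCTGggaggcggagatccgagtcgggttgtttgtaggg
Lyl1, chr8:84701207-84701506, plus strand: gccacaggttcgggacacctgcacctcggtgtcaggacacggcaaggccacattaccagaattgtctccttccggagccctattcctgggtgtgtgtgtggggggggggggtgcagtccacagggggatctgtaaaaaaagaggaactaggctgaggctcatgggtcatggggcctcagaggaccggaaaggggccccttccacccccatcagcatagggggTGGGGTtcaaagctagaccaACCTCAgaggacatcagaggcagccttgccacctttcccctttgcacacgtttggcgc

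The Runx1 window held 3 RUNX matches and 2 MYB matches. In the Tal1 window there were 1 GATA, 1 E-box and 2 MYB matches, and in the Lyl1 window 2 RUNX matches. Of the 9 genes, 6 had entries in the promoter table, with 11 windows in all. Among those 11 windows, 6 held a RUNX match, 3 a MYB match, 2 a GATA match, 2 an E-box match and 0 an ETS match. The same letters occurred in 45.8%, 44.8%, 25.4%, 17.2% and 23.8% of all 32851 windows in the table, in that order. The other Runx1 and Tal1 windows in the table held 0 matches each. A match is only a run of letters.

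At 8 h of A-485 most of the 9 genes were lower than at 0 h, and 1 was higher. All 9 passed the filter on low counts, as did 11119 genes in all. By edgeR's quasi-likelihood test with Benjamini-Hochberg adjustment over those genes, called at an adjusted p under 0.05, 6 members were lower (21.0% of all genes tested were), 1 was higher (17.9% of all genes tested were) and 2 were not called, so that 7 of 9 were called either way, beside 38.9% of all genes tested. The median log2 change was -1.37 over the 9 members and 0.02 over all genes tested. At 24 h, 4 members were lower and 1 higher, where 27.1% and 23.2% of all genes tested were (50.3% either way), and the members' median was -0.31. At 48 h, 4 were lower and 1 higher, where 30.5% and 25.2% of all genes tested were (55.6% either way), with a median of -0.98. At 72 h, 5 were lower and 1 higher, where 29.4% and 25.9% of all genes tested were (55.3% either way), with a median of -0.63. The 4 treated times share the same 2 untreated libraries. In bulk RNA, fewer cells of a type and less RNA per cell cannot be told apart.

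The summed levels of myeloid genes were also low in the treated libraries. The 8 granulocyte-monocyte progenitor genes summed to 1690 and 628 TPM at 8 h, against 10400 and 10000 TPM at 0 h, and all 8 were at 1 TPM or more in these 4 libraries. Over all treated libraries they summed to 384 to 1690 TPM, with 5 to 8 of 8 at 1 TPM or more. Not every gene of this list stayed low. Fcgr3 was called lower at 8 h (-1.63 ± 0.53, edgeR adjusted p = 0.0378) and not at 24, 48 or 72 h. In TPM it was at 574.26 and 489.28 at 48 h, against 398.6 and 377.02 at 0 h. Mpo, the neutrophil granule peroxidase, was at 229.92 and 18.44 TPM at 8 h, against 1528.84 and 1128.29 TPM at 0 h, so the 8 h libraries differed in it far more than the 0 h libraries. The 7 mature myeloid genes summed to 3920 and 3070 TPM at 8 h, against 10700 and 6470 TPM at 0 h. Over all treated libraries they summed to 552 to 3920 TPM, with 6 to 7 of 7 at 1 TPM or more. Most of the 0 h sum was Ly6c2 (7399.12 and 5220.64 TPM). Adgre1 and Itgam were called lower at 8 h and not at 24 or 48 h. At 72 h Itgam was called lower (-0.35 ± 0.11, edgeR adjusted p = 0.0267) and Adgre1 was not. In TPM both lay above 0 h at 24, 48 and 72 h. Adgre1 was at 204.75 and 161.8 TPM at 72 h, against 122.83 and 124.67 TPM at 0 h. The 10 T and NK cell genes summed to 12.1 to 27.8 TPM in treated libraries, against 101 to 192 TPM at 0 h, mostly Nkg7. Nkg7 was at 181.74 and 92.16 TPM at 0 h, and at 996.48 TPM in GMP. Of the 10, 2 to 3 reached 1 TPM in treated libraries, against 3 at 0 h. Cd247, of the same list, was higher at 48 h, at 12.65 and 11.54 TPM, against 4.34 and 3.48 TPM at 0 h. The 7 B cell genes summed to at most 1.29 TPM in any library of the time course. The 4 MLL-fusion targets summed to 194 to 508 TPM in treated libraries, against 149 to 192 TPM at 0 h. The part of these genes in the members' values was not tested.

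**Figure D1:**
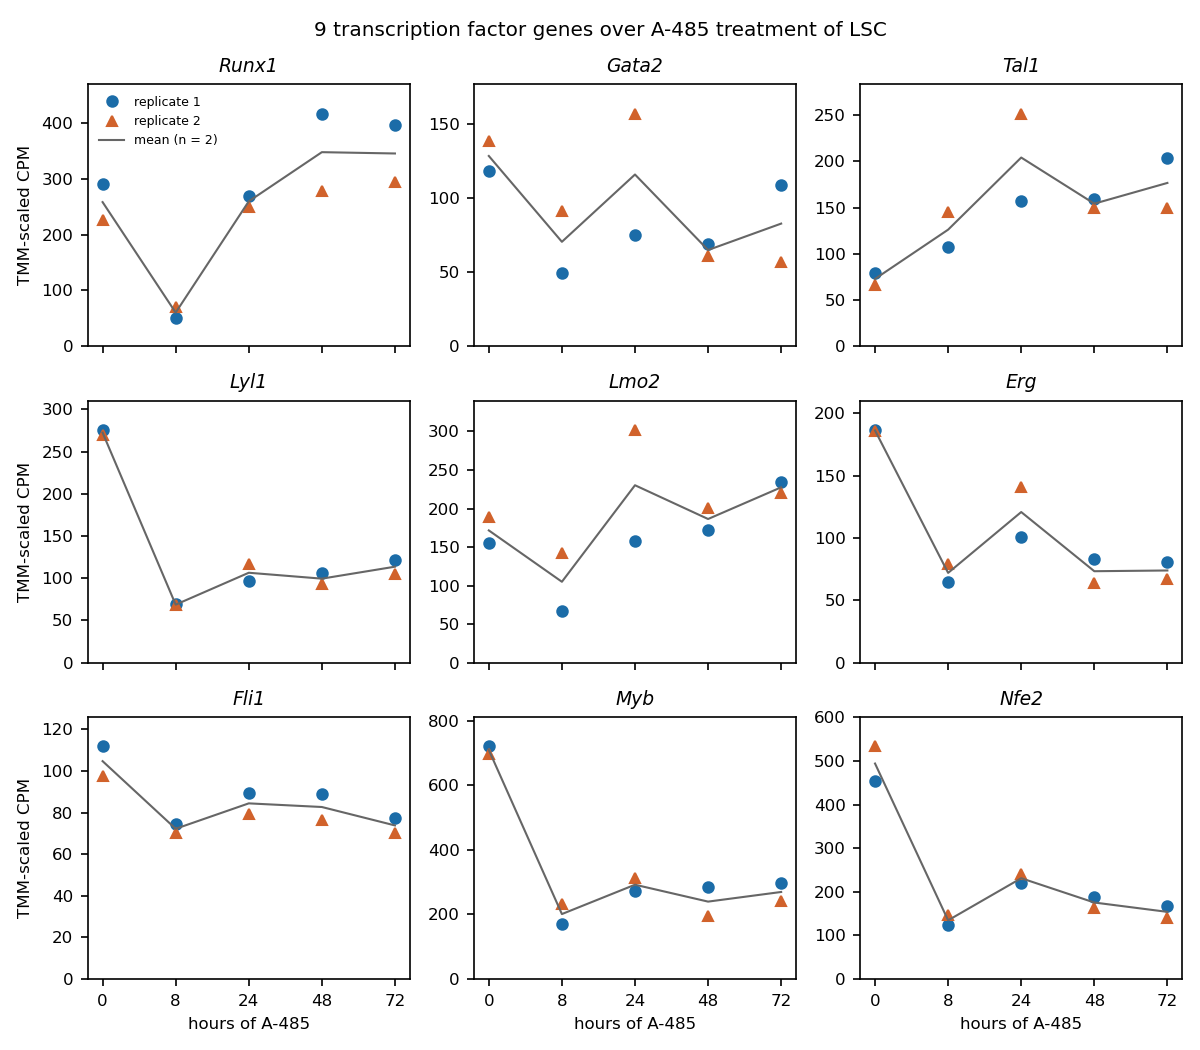
TMM-scaled CPM (vertical axes, from 0) of each of the 9 genes by hours of A-485 (horizontal axes, evenly spaced times); circles are replicate 1, triangles replicate 2 and the line joins the means of 2 libraries. Both Runx1 libraries at 8 h (50.2 and 70.6 CPM) lie below all its others, the treated Tal1 libraries all lie above its 0 h libraries, and the treated Lyl1, Erg, Myb and Nfe2 libraries all lie below theirs.

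Tal1 was the member that was higher with A-485, at every treated time. Its levels, in counts relative to library size scaled by TMM (CPM), were 79.2 and 66.7 at 0 h, 107.3 and 145.0 at 8 h, 156.6 and 251.6 at 24 h, 158.8 and 149.7 at 48 h, and 203.9 and 149.4 at 72 h. All 8 treated libraries lay above both 0 h libraries. The log2 change against 0 h was 0.79 ± 0.25 (SE) at 8 h (adjusted p = 0.0347), 1.48 ± 0.25 at 24 h (adjusted p = 0.00167), 1.08 ± 0.25 at 48 h (adjusted p = 0.00625) and 1.28 ± 0.25 at 72 h (adjusted p = 0.0028), by edgeR's test. The 8 h call was lost when any 1 of 5 libraries was left out, namely replicate 1 of 0 h (log2 change 0.96, adjusted p = 0.0724), replicate 2 of 0 h (0.71, adjusted p = 0.151), replicate 2 of 8 h (0.56, adjusted p = 0.183), or either 48 h library (0.79, adjusted p = 0.0547 and 0.0548).

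Lyl1, a close relative of Tal1 that binds the same partners, moved the other way. Its levels were 275.6 and 269.2 CPM at 0 h, 69.3 and 68.3 CPM at 8 h, 96.3 and 116.8 CPM at 24 h, 105.8 and 93.3 CPM at 48 h, and 122.2 and 105.2 CPM at 72 h. The 2 libraries of a time differed by at most 1.21-fold, and all treated libraries lay below both 0 h libraries. The log2 change was -1.99 ± 0.13 at 8 h (edgeR adjusted p = 3.13e-05) and -1.26 ± 0.13 at 72 h (edgeR adjusted p = 8.52e-05). Between 8 and 72 h it rose by 0.73 ± 0.13 on the log2 scale (edgeR adjusted p = 0.00337) without reaching its untreated level. In the annotation at hand, exons of Lyl1 overlap those of Nfix on the opposite strand, and the labels do not say whether counting used the strand, so reads in the overlap are uncertain. Nfix was between 18.93 and 34.22 TPM in the treated libraries, against 12.47 and 13.28 TPM at 0 h, and its part in the Lyl1 counts was not tested.

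With opposite changes, the levels of Lyl1 and Tal1 moved closer. At 0 h Lyl1 was at 200.69 and 195.54 TPM beside 22.41 and 18.83 TPM of Tal1. The levels were close at 8 h, with Lyl1 at 67.23 and 69.1 TPM and Tal1 at 40.68 and 57.01 TPM. At 72 h Lyl1 was at 148.71 and 121.92 TPM beside 96.84 and 67.75 TPM of Tal1. Lyl1 stayed above Tal1 in every library of the time course.

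Lmo2, the bridge of the complex, had no call against 0 h at any time. Its levels were 154.8 and 188.4 CPM at 0 h, 67.1 and 142.9 CPM at 8 h, 158.5 and 301.9 CPM at 24 h, 171.9 and 200.9 CPM at 48 h, and 234.9 and 220.1 CPM at 72 h. The 8 h libraries both lay below the 0 h libraries, the 24 h and 48 h libraries overlapped them, and the 72 h libraries both lay above. Log2 changes were -0.71 ± 0.36 at 8 h (edgeR adjusted p = 0.153) and 0.41 ± 0.36 at 72 h (edgeR adjusted p = 0.362). It was called higher at 72 h than at 8 h, by 1.12 ± 0.37 on the log2 scale (edgeR adjusted p = 0.0456), a call that was lost without any 1 of 7 libraries. Without replicate 1 of 8 h that change was 0.66 (edgeR adjusted p = 0.179), and without either library of 0 h, 48 h or 72 h it was 1.07 to 1.16 (edgeR adjusted p = 0.0701 to 0.131). Without replicate 2 of 8 h, Lmo2 was called lower at 8 h (-1.35, edgeR adjusted p = 0.0258). Without replicate 2 of 24 h its 24 h change was -0.11, against 0.42 with both. Lmo2 was called higher at 72 h in log2(TPM + 1) with limma (1.14, adjusted p = 0.0238). On that scale the median of all genes moved by 0.62, and Lmo2 relative to it was at 0.52, against 0.43 with TMM.

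Gata2, the zinc-finger member, had no call either, and its libraries were far apart at 8, 24 and 72 h. It was at 118.6 and 138.4 CPM at 0 h, 49.6 and 91.5 CPM at 8 h, 74.9 and 157.1 CPM at 24 h, 68.8 and 61.2 CPM at 48 h, and 108.9 and 56.8 CPM at 72 h. All treated libraries lay below both 0 h libraries except replicate 2 of 24 h. Log2 changes against 0 h were -0.86 ± 0.42 at 8 h (edgeR adjusted p = 0.13), -0.15 ± 0.41 at 24 h (edgeR adjusted p = 0.782), -0.98 ± 0.42 at 48 h (edgeR adjusted p = 0.0751) and -0.63 ± 0.42 at 72 h (edgeR adjusted p = 0.223). The 48 h change was called with DESeq2 (adjusted p = 0.0261) and without a filter (edgeR adjusted p = 0.0245). It was also called with only the 2 times compared in the fit (-0.95, edgeR adjusted p = 0.000119). Without either 24 h library the 48 h change was -0.98. Without replicate 1 of 24 h the 24 h change was 0.29.

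Gata2 and Lmo2 were both far apart at 8 and 24 h, and only Gata2 of the pair at 72 h. The higher library of a time exceeded the lower 1.85-fold for Gata2 and 2.13-fold for Lmo2 at 8 h, and 2.10-fold for Gata2 and 1.90-fold for Lmo2 at 24 h, with replicate 2 higher each time. Itga2b was 2.48-fold and 3.78-fold higher in replicate 2 at these times. At 72 h Gata2 was 1.92-fold, Itga2b 2.53-fold and Lmo2 1.07-fold higher in replicate 1. The summed level of the 9 megakaryocyte markers was 14.8 to 249 TPM in treated libraries, with 1 to 3 of 9 at 1 TPM or more and 3 to 7 listed at 0. At 0 h it was 169 to 189 TPM, mostly Itga2b, with 4 of 9 at 1 TPM or more and 4 to 5 listed at 0. The erythroid markers summed to 0.99 to 11.1 TPM in treated libraries, against 3.69 to 7.82 TPM at 0 h. Whether these markers have a part in the Gata2 and Lmo2 values was not tested.

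Runx1, the DNA-binding part of core binding factor, was lower at 8 h and was not called against 0 h at later times. It was at 290.1 and 226.0 CPM at 0 h, 50.2 and 70.6 CPM at 8 h, 268.7 and 250.2 CPM at 24 h, 416.4 and 278.4 CPM at 48 h, and 396.4 and 293.7 CPM at 72 h. The 24 h and 48 h libraries overlapped those of 0 h, and both 72 h libraries lay above them. Against 0 h the log2 change was -2.10 ± 0.25 at 8 h (edgeR adjusted p = 0.000482), 0.01 ± 0.24 at 24 h (edgeR adjusted p = 0.982) and 0.42 ± 0.24 at 72 h (edgeR adjusted p = 0.167). From 8 to 72 h it rose by 2.51 ± 0.26 on the log2 scale (edgeR adjusted p = 0.000239), the change with the smallest adjusted p among the members in that comparison. Scaled by library size alone, the 72 h change was called (0.79, edgeR adjusted p = 0.0178), as was the 48 h change (0.78, edgeR adjusted p = 0.0188), and in log2(TPM + 1) both were called with limma (1.10 and 1.06, adjusted p = 0.00374 and 0.00476). The all-gene median shifted too. Relative to it, Runx1 was at 0.44 at 72 h and 0.47 at 48 h both with TMM and with library size alone, and at 0.482 and 0.495 in log2(TPM + 1). Without replicate 2 of 0 h or replicate 1 of 24 h the 24 h change was -0.13 and -0.04.

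Runx1 also had the most variable mean transcript length. RSEM's abundance-weighted length ran from 6234.4 nt in the single LSC library to 6702.9 nt in replicate 1 of 72 h, a difference of 7.51% over 4 transcripts listed for the gene. Among the other members with several transcripts, Nfe2 varied by 3.72%, Lmo2 by 2.84%, Erg by 0.99%, Myb by 0.93% and Tal1 by 0.16%. No test was made on these lengths. Genes on the opposite strand, Gm26626 and Gm26577, also overlap exons of Runx1 and Myb in the annotation at hand. Unlike Nfix, neither is among the genes of the deposited tables, and reads in these overlaps are uncertain too.

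The ETS factors Erg and Fli1 bind the same kind of site, and Erg was called lower at all 4 treated times. It was at 186.6 and 185.8 CPM at 0 h, 64.9 and 79.1 CPM at 8 h, 101.0 and 140.6 CPM at 24 h, 83.0 and 63.7 CPM at 48 h, and 80.9 and 67.0 CPM at 72 h. All treated Erg libraries were below both 0 h libraries, and 24 h was the highest of the treated times. It changed by -1.37 ± 0.20 at 8 h (edgeR adjusted p = 0.0011), -0.62 ± 0.19 at 24 h (edgeR adjusted p = 0.0255) and -1.33 ± 0.20 at 72 h (edgeR adjusted p = 0.000613) on the log2 scale. The 24 h call of Erg was lost without replicate 1 of 24 h (-0.40, edgeR adjusted p = 0.132) and without either 0 h library (-0.59 and -0.60, edgeR adjusted p = 0.107 and 0.1). Scaled by library size alone it was -0.32 (edgeR adjusted p = 0.187), and relative to the median of all genes it was -0.60 on both scalings.

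Fli1 was at 111.9 and 97.6 CPM at 0 h, 74.4 and 70.2 CPM at 8 h, 89.7 and 79.3 CPM at 24 h, 89.0 and 76.5 CPM at 48 h, and 77.6 and 70.1 CPM at 72 h. Its treated libraries were all below both 0 h libraries by CPM. The log2 change was -0.54 ± 0.13 at 8 h (edgeR adjusted p = 0.0121) and -0.51 ± 0.13 at 72 h (edgeR adjusted p = 0.0106). Without replicate 1 of 0 h neither was called (-0.39 and -0.36, edgeR adjusted p = 0.106 and 0.101), nor was either without replicate 2 of its own time (-0.49 and -0.43, edgeR adjusted p = 0.069 and 0.071). Scaled by library size alone they were -0.22 and -0.14 (edgeR adjusted p = 0.179 and 0.374), and relative to the median of all genes they were -0.55 and -0.48 on both scalings. Fli1 was the member with the smallest called changes, and in log2(TPM + 1) its direction turned, at 0.20 at 24 h, 0.33 at 48 h and 0.21 at 72 h. On that scale the median of all genes moved by 0.43, 0.56 and 0.62 at those times, and Fli1 relative to it was at -0.22, -0.24 and -0.41. Of 10 endothelial markers, a lineage that also uses Erg, Fli1 and Tal1, 6 to 8 were listed at 0 in treated libraries, against 7 to 8 at 0 h. Their summed level was 141 to 326 TPM in treated libraries, against 343 to 386 TPM at 0 h, with 2 of 10, Pecam1 and Egfl7, at 1 TPM or more in every one. Pecam1, an adhesion molecule that blood cells also carry, was called lower at 8 h (-1.04 ± 0.26, edgeR adjusted p = 0.0136) and at 72 h (-1.60 ± 0.26, edgeR adjusted p = 0.00112). So was Egfl7, a secreted endothelial factor (-1.52 ± 0.47 and -2.53 ± 0.50, edgeR adjusted p = 0.0313 and 0.00275). The part of these genes in the Erg and Fli1 values was not tested.

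Myb, a factor that drives proliferation of progenitors, was lower at all treated times. It was at 720.8 and 698.2 CPM at 0 h, 170.9 and 231.8 CPM at 8 h, 271.5 and 313.0 CPM at 24 h, 285.8 and 194.0 CPM at 48 h, and 297.3 and 242.2 CPM at 72 h. All treated libraries were below both untreated ones. Its log2 change was -1.82 ± 0.21 at 8 h (edgeR adjusted p = 0.000411), -1.56 ± 0.21 at 48 h (edgeR adjusted p = 0.000363) and -1.40 ± 0.21 at 72 h (edgeR adjusted p = 0.000665). The change from 8 to 72 h, 0.42 ± 0.21, was not called (edgeR adjusted p = 0.153).

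Nfe2, the large subunit of NF-E2 and a partner of the small Maf proteins, was at 454.5 and 533.4 CPM at 0 h, 123.3 and 146.0 CPM at 8 h, 220.4 and 241.9 CPM at 24 h, 187.5 and 163.4 CPM at 48 h, and 167.9 and 140.1 CPM at 72 h. The treated Nfe2 libraries did not overlap the untreated ones at any time. The log2 change was -1.88 ± 0.15 at 8 h (edgeR adjusted p = 6.23e-05), -1.10 ± 0.14 at 24 h (edgeR adjusted p = 0.000441) and -1.68 ± 0.14 at 72 h (edgeR adjusted p = 3.84e-05). Its 24 h mean was the highest of the treated times, as for every other member except Runx1 and Lyl1. Among these members, only for Erg and Nfe2 did both 24 h libraries lie above all other treated ones.

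Between 8 and 72 h, 3 of the 9 members (Runx1, Lyl1 and Lmo2) were called higher, where 15.1% of all genes tested were, and 0 were called lower, where 17.2% of all genes tested were (32.2% either way). The members' median log2 change was 0.42, against -0.02 for all genes tested. Erg (0.04 ± 0.20), Fli1 (0.03 ± 0.13) and Nfe2 (0.19 ± 0.14) had the smallest differences between these times.

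**Figure D2:**
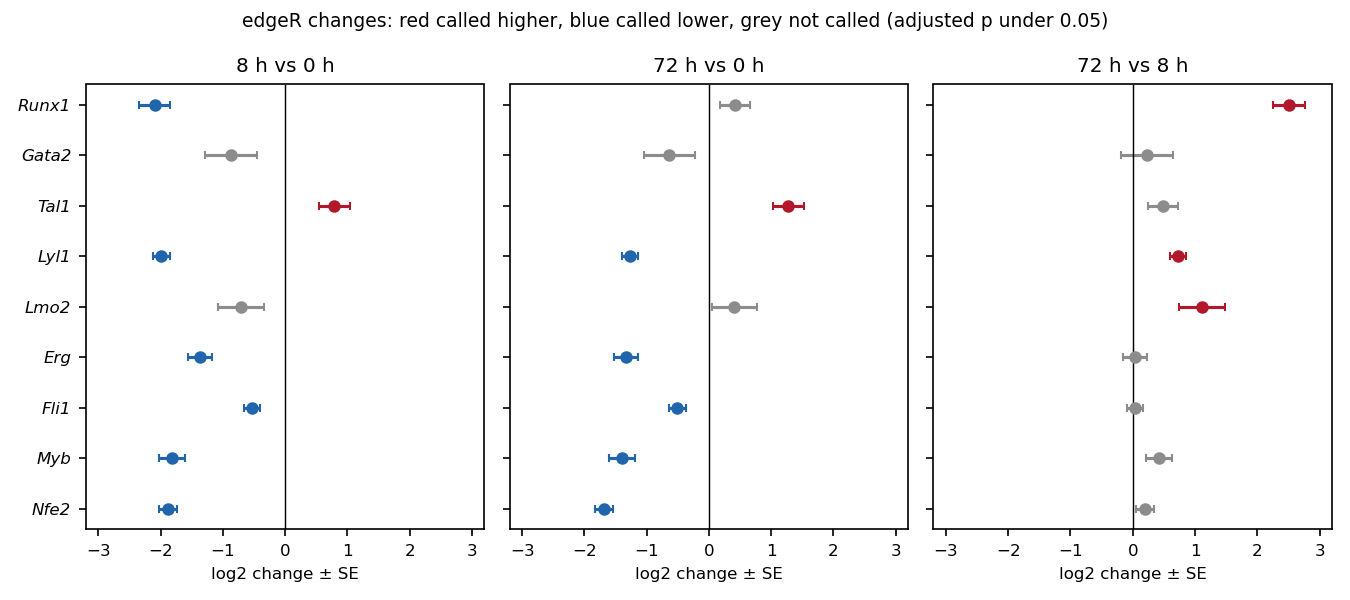
Log2 change with its SE (horizontal axes) of each of the 9 genes for 8 h against 0 h, 72 h against 0 h and 72 h against 8 h, from edgeR; red points were called higher, blue lower, grey not called at an adjusted p under 0.05. Runx1 sits at -2.10 at 8 h and at 2.51 from 8 to 72 h, while Lyl1, Erg, Myb and Nfe2 stay left of 0 in both comparisons with 0 h and Tal1 stays right.

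Levels between genes were compared in TPM, which is scaled for transcript length. At 0 h, in means of 2 libraries, the order was Nfe2 (390.9 TPM), Myb (246.2), Lyl1 (198.1), Lmo2 (145.1) and Erg (71.1), then Gata2 (48.2), Runx1 (45.7) and Fli1 (40.2), whose libraries overlapped their neighbours, with Tal1 (20.6) last. At 8 h Runx1 was last, at 11.93 and 17.11 TPM, with Tal1 above Fli1, Erg and Gata2. At 72 h Lmo2 was first, at 336.51 and 300.78 TPM, ahead of Nfe2 at 230.24 and 177.76 TPM. In the single libraries the first gene was Nfe2 in mAML (301.39 TPM), Lmo2 in LSC (436.81 TPM) and Myb in GMP (324.22 TPM), and the last was Tal1 in mAML and LSC and Gata2, at 7.04 TPM, in GMP.

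**Figure D3:**
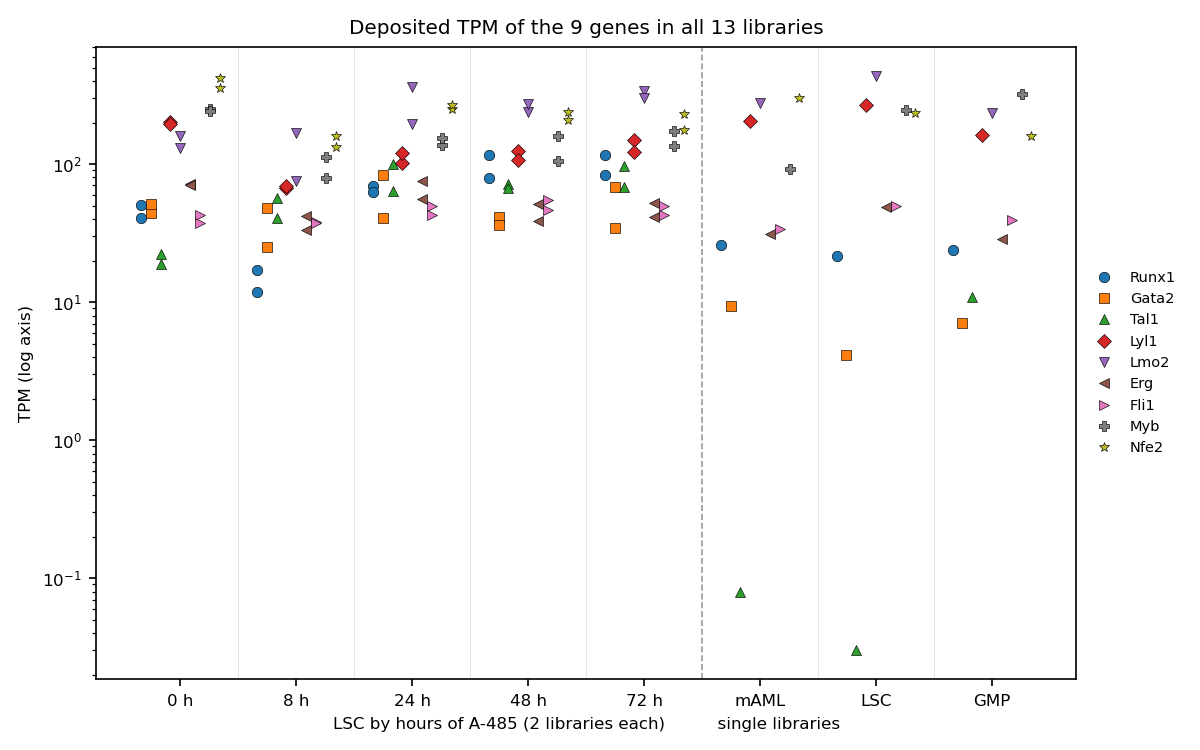
TPM (vertical log axis) of each of the 9 genes in the 10 LSC libraries by hours of A-485 and, right of the dashed line, in the single mAML, LSC and GMP libraries; each symbol is 1 library. Tal1 lies below 0.1 TPM in the mAML and LSC libraries, at 10.93 TPM in GMP and at 18.83 TPM or more in all time-course libraries.

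The 3 single libraries have no replicates, so their differences have no replicate check and no p. Ratios are of TMM-scaled CPM, in brackets the 95% exact (Clopper-Pearson) interval, for counting error only. Between LSC and GMP, 2 members were at least 2-fold higher, where 13.4% of all genes compared were, and 1 was at least 2-fold lower, where 12.6% were (26.0% either way). The median log2 ratio of the members was 0.56, against -0.01 over all genes compared.

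Tal1 stood furthest apart, with 3 counts in LSC and 703 counts in GMP, or 0.0744 and 26.7 CPM, a log2 ratio of -8.49 [-10.77, -6.94]. In mAML it had 10 counts, and the log2 ratio to GMP was -6.88 [-7.95, -6.00]. The mAML to LSC ratio of Tal1 rests on 10 and 3 counts, 1.61 [-0.35, 4.10], so no difference was detectable at this depth. The summed level of 11 mast cell, basophil and eosinophil markers, a lineage that also uses Tal1 and Gata2, was 36.6 TPM in mAML and 34.7 TPM in LSC (4 of 11 at 1 TPM or more in each), against 1490 TPM in GMP (9 of 11), and its part in the Tal1 ratio was not tested. In the treated time-course libraries, where Tal1 was higher, the same markers summed to 12.4 to 199 TPM, against 483 to 663 TPM at 0 h.

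Lmo2 stood at 429.7 CPM in LSC, against 198.8 CPM in GMP (log2 ratio 1.11 [1.07, 1.16]), and Erg at 104.6 CPM in LSC, against 52.0 CPM in GMP (1.01 [0.92, 1.10]). Lyl1 came just short of 2-fold, with 308.1 CPM in LSC, against 162.3 CPM in GMP (0.93 [0.88, 0.98]). On the TPM + 1 scale Tal1 was the only member at least 2-fold apart between LSC and GMP. Fli1 (0.56 [0.49, 0.64]) and Nfe2 (0.78 [0.72, 0.83]) were higher in LSC by less, while Gata2 (-0.53 [-0.75, -0.32]) and Myb (-0.16 [-0.19, -0.13]) were lower in LSC. Runx1 had 92.4 CPM in LSC, against 89.0 CPM in GMP (0.05 [-0.02, 0.13]).

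Between mAML and LSC, 1 member was at least 2-fold higher, where 16.6% of all genes compared were, and 1 was at least 2-fold lower, where 8.91% were (25.5% either way). Gata2 had 21.5 CPM in mAML, against 9.05 CPM in LSC (log2 ratio 1.25 [1.07, 1.42]), and Myb was the lower one, with 224.0 CPM in mAML, against 578.5 CPM in LSC. The other members with more than 10 counts in each library were within 0.6 of 0, with Erg (-0.59 [-0.66, -0.53]), Lmo2 (-0.58 [-0.61, -0.55]) and Fli1 (-0.48 [-0.55, -0.42]) lower in mAML and Nfe2 (0.44 [0.40, 0.48]) and Runx1 (0.43 [0.37, 0.49]) higher. Against GMP, mAML had 1 member at least 2-fold higher, where 22.1% of all genes compared were, and 2 lower, where 15.7% were (37.8% either way). The higher one was Nfe2, with 330.0 CPM in mAML, against 141.9 CPM in GMP (1.22 [1.17, 1.27]), and the lower ones were Tal1 and Myb (-1.53 [-1.56, -1.49]). The erythroid markers summed to 3390 TPM in mAML, and their part in its Nfe2 and Gata2 values was not tested.

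Genes around the 9 factors were taken from lists of partners, relatives and reported targets. Of 17 complex partners 11 were tested. At 8 h, 4 were lower and 0 higher, where 21.0% and 17.9% of all genes tested were, with a median log2 change of -0.25. At 72 h, 2 were lower and 3 higher, where 29.4% and 25.9% of all genes tested were, with a median of 0.38. Over all genes tested the medians were 0.02 and -0.02. Lmo4, a LIM-only relative of Lmo2, was at 84.1 and 91.3 CPM at 8 h, against 173.2 and 178.0 CPM at 0 h (edgeR adjusted p = 0.000166), and it was still lower at 72 h (log2 change -1.23 ± 0.10). Cbfa2t3, the co-repressor Eto2 of the Tal1 complex, was at 30.8 and 35.6 CPM at 8 h, against 126.5 and 129.0 CPM at 0 h (-1.94 ± 0.21, edgeR adjusted p = 0.000271). At 72 h Cbfa2t3 was not called (-0.27 ± 0.20, edgeR adjusted p = 0.277). Ldb1, the scaffold partner of Lmo2 in the complex, was at 216.5 and 279.3 CPM at 72 h, against 158.1 and 153.1 CPM at 0 h (0.67 ± 0.15, edgeR adjusted p = 0.00528).

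The E-protein inhibitors Id1 and Id2, which keep E proteins from pairing with Tal1 or Lyl1, were the 2 of 4 listed that were tested, and both were lower at every treated time. Their medians were -1.97 at 8 h and -2.38 at 72 h, against 0.02 and -0.02 over all genes tested. Of all genes tested, 21.0% were lower at 8 h, 27.1% at 24 h, 30.5% at 48 h and 29.4% at 72 h. At 72 h, Id1 changed by -2.42 ± 0.45 and Id2 by -2.34 ± 0.51 on the log2 scale (edgeR adjusted p = 0.00195 and 0.00484). The RUNX list held 3 genes, Runx2, Runx3 and Cbfb (median -0.24 at 8 h and -0.05 at 72 h). At both 8 h and 72 h, 1 of them was higher and 1 lower. The higher one was Cbfb at 8 h and Runx2 at 72 h. The shares of all genes tested that were higher were 17.9% at 8 h and 25.9% at 72 h. At 72 h, 1 of 3 each way was near the shares of all genes. Runx3 fell at 8 h (-1.07 ± 0.13, edgeR adjusted p = 0.000473) and Cbfb, the partner subunit of all RUNX proteins, was higher at 8 h by 0.33 ± 0.09 (edgeR adjusted p = 0.0206) and not called later. Runx2 was higher at 72 h, by 0.37 ± 0.12 (edgeR adjusted p = 0.0306).

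Of 10 other ETS genes, 2 were lower and 0 higher at 8 h, and 2 were lower and 4 higher at 72 h, with medians of 0.09 and 0.37. Among all genes tested, 21.0% were lower and 17.9% higher at 8 h, and 29.4% and 25.9% at 72 h, so the share of lower ETS genes at 8 h was near that of all genes. Ets1 was lower at both times (-1.74 ± 0.32 and -3.32 ± 0.35, edgeR adjusted p = 0.00359 and 0.000108), as was Etv6 (-1.38 ± 0.13 and -0.99 ± 0.13, edgeR adjusted p = 0.000168 and 0.000354). Elf4 (0.62 ± 0.10) and Elk3 (0.68 ± 0.16) were called higher at 72 h. Of 3 MYB list genes, 2 were lower at 8 h and at 72 h, and 1, Mybl1, was higher at 8 h (1.39 ± 0.38, edgeR adjusted p = 0.0201); the medians were -0.92 and -1.11. Mybl2, a cell-cycle relative of Myb, was at 0.751 and 2.39 CPM at 72 h, against 126.4 and 128.4 CPM at 0 h. Mybbp1a, named for binding the Myb protein, was the other lower gene. Of 8 relatives and partners of Nfe2, 6 were tested, with 3 lower and 0 higher at 8 h and 2 lower and 1 higher at 72 h, and medians of -0.44 and 0.27. The 72 h counts of these 6 genes were near the shares of all genes tested. The small Maf genes Mafg (-1.31 ± 0.15) and Maff (-2.09 ± 0.45) were lower at 8 h (edgeR adjusted p = 0.000334 and 0.00696) and at 72 h.

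Reported targets of the factors had 15 of 18 genes tested, with 10 lower and 0 higher at 8 h, and 10 lower and 2 higher at 72 h, where 21.0% and 17.9% of all genes tested were at 8 h and 29.4% and 25.9% at 72 h. The genes lower at both times were 7, namely Kit, Cd34, Gfi1, Mpo, Elane, Myc and Bcl2. Csf1r, Tbxas1 and Zfpm1 were called lower at 8 h and not at 72 h, while Itga2b, Pf4 and Rab27b were called lower at 72 h and not at 8 h. A missing call was not always a small change. Csf1r was at -1.93 at 72 h, with 13 and 10 counts, against 38 and 44 counts at 0 h. Pf4 was at -2.27 at 8 h, with 26 and 6 counts, against 70 and 65 counts at 0 h. Rab27b was at -0.80 at 8 h and Zfpm1 at -0.40 at 72 h, while Tbxas1 was at 0.02 at 72 h and Itga2b at -0.22 at 8 h. Kit, Cd34, Mpo and Elane are also in the list of granulocyte-monocyte progenitor genes. The median log2 change was -1.83 at 8 h and -1.93 at 72 h. Kit had 3 and 0 counts at 72 h, against 1635 and 1430 counts at 0 h. Gfi1, a transcriptional repressor in myeloid cells, was at 88.2 and 84.8 CPM at 72 h, against 332.8 and 282.5 CPM at 0 h (-1.83 ± 0.15, edgeR adjusted p = 2.92e-05). Cd34 was at 125.5 and 134.2 CPM at 72 h, against 454.4 and 498.3 CPM at 0 h (-1.88 ± 0.12, edgeR adjusted p = 1.08e-05). Hhex (0.72 ± 0.15) and Spi1 (0.54 ± 0.19), the myeloid factor PU.1, were the 2 called higher at 72 h (edgeR adjusted p = 0.00433 and 0.0369). On scalings by library size or TPM, the called list and marker genes kept their direction with few exceptions. These were Tcf3 at 24 h and 48 h, Runx3 at 48 h and the myeloid marker Itgam at 72 h.

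**Figure D4:**
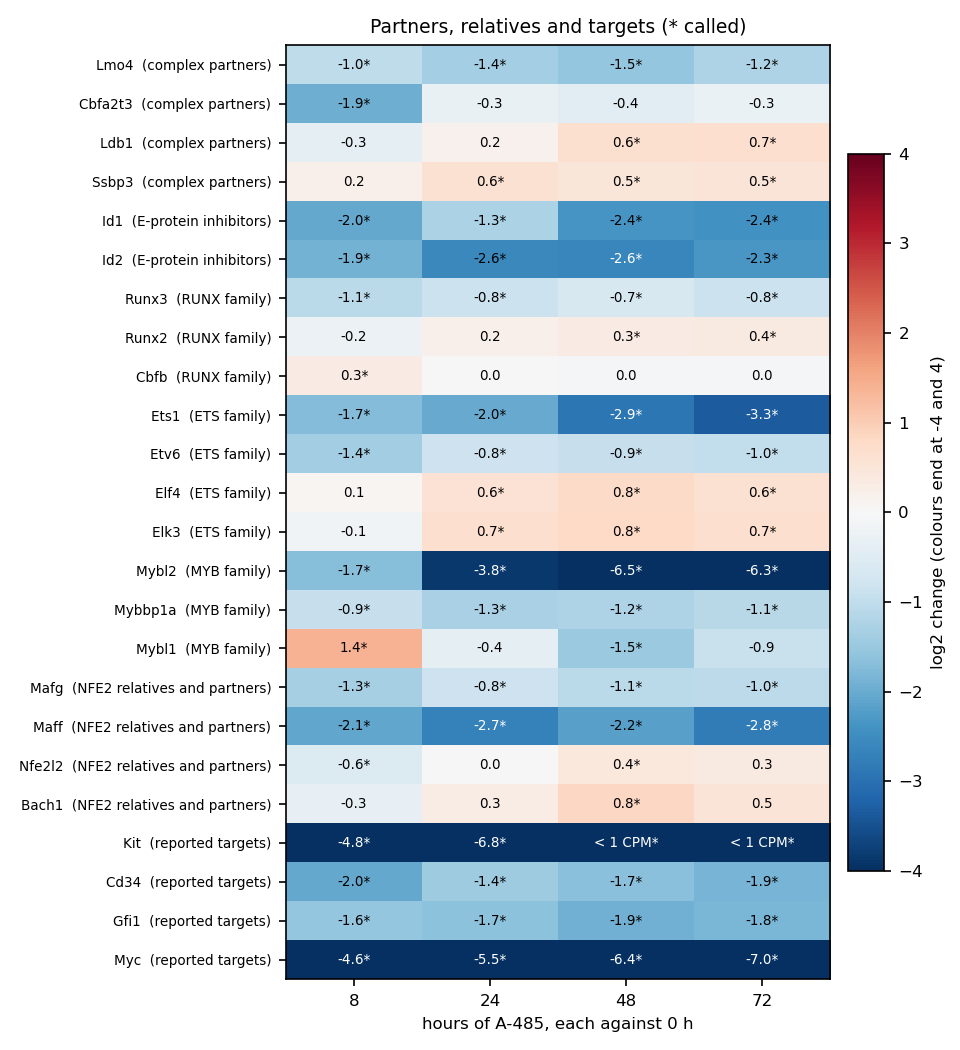
Log2 change against 0 h (colour and number, colours ending at -4 and 4) of 24 partner, family and target genes at 8, 24, 48 and 72 h of A-485; a star marks a call at an adjusted p under 0.05, and Kit is marked where its treated mean was below 1 CPM. Lmo4, Id1, Id2, Ets1 and Mybl2 are lower in all 4 columns, and Ldb1 is at -0.34, not called, at 8 h and at 0.67 at 72 h.

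Over all 13 libraries, log2(TPM + 1) of the members varied together only in part. The highest Pearson r between members was 0.854, between Gata2 and Tal1, and the lowest was -0.689, between Tal1 and Lyl1. These values describe 13 libraries that fall into the time course and 3 single libraries, and these points share that division and are no independent replicates. Among 9552 genes with a mean of at least 5 TPM, the closest profiles were Msi2 (r = 0.99) and Mccc2 (0.988) for Tal1, and Adam17 (0.984) and Ift122 (0.981) for Gata2. For Runx1 they were Tgfb1 (0.957) and Ptp4a2 (0.953), and for Lyl1 Rasgrp2 (0.926) and Cmtm7 (0.925). Bckdha (0.925) and Mcf2l (0.888) came closest to Nfe2, Gstm1 (0.92) and Prdx6 (0.902) to Myb, and Elmo1 (0.881) and Gpx1 (0.844) to Lmo2. Rreb1 (0.865) and Plcb2 (0.86) came closest to Fli1, and Sytl1 (0.847) and Pafah2 (0.843) to Erg.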

How the data were processed

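RNA from 13 mouse libraries was sequenced by the authors. Per the submitters' processing notes, the tools named are STAR and RSEM and the build is mm9, with no version or setting stated. The tables deposited hold 24328 genes and, per the file headers, columns for expected count, TPM, transcript length and effective length (in nt). Expected counts, as the authors deposited them, are RSEM's estimated reads per gene, unscaled. TPM, as the authors deposited it, divides by length and total and keeps no depth.

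After rounding the counts to whole numbers, the 10 time-course libraries were fitted together in edgeR 4.0.16 (R 4.3.3) with TMM scaling, filterByExpr (11119 genes kept), time as a factor and the quasi-likelihood test; p-values were adjusted by Benjamini-Hochberg over all genes tested. Each standard error was taken as the size of the log2 change over the root of its F statistic. The 3 single libraries were scaled together and compared without a test. The members and lists were chosen with earlier results of these data known. Named genes are the 9 members, up to 4 genes per list with the smallest adjusted p over the 4 treated times, label checks, and the 2 closest profiles per member. Kit, Mpo, Itgam, Csf1r, Ep300 and Crebbp were planned as checks of labels and treatment. Ep300 and Crebbp were called higher at every treated time, with log2 changes of 1.22 ± 0.14 and 1.67 ± 0.13 at 8 h. Hhex, Spi1, Tcf3, Itga2b, Nfix, Pecam1, Egfl7 and the other reported targets called lower at 8 h or 72 h were named after their values were seen. So were Ly6c2, Adgre1, Fcgr3, Nkg7 and Cd247. Alternatives were RLE scaling, library size alone, no filter, DESeq2 1.42.0, limma 3.58.1 on log2(TPM + 1) and log2(TPM + 0.1), only the times compared, a replicate block, offsets for transcript length, and each library left out. The fitting code was tested on simulated data. Counting intervals cover counting error only, since each of the groups compared had 1 library. PCR duplicates were not marked by molecular identifiers in the sources used here, so even counting error may be understated.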

Additional observations from a re-analysis of the deposited data

How the results depend on the processing

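In the time course, 777 values recomputed under the alternatives kept direction and side of the threshold, 27 lost a call, 26 gained one and 25 turned direction; RLE scaling changed none. The number of members called was 8 at 48 h with only the times compared in the fit, against 5, and 6 at 72 h against 8 h with limma on log2(TPM + 1) or log2(TPM + 0.1), against 3. Calls over all genes moved as well. At 48 h they were 3424 higher and 3798 lower of 10770 with only the times compared, against 2799 and 3387 of 11119. For 72 h against 8 h they were 3217 higher and 1240 lower of 11119 with log2(TPM + 1), against 1675 and 1908. With log2(TPM + 0.1) they were 3181 and 1234. For LSC against GMP, 1 member was 2-fold apart with TPM + 1 or TPM + 0.1, against 3. Among the single libraries, 69 ratios moved beyond their counting interval and 66 did not. Those that moved were 22 of 27 with library size alone, 23 with TPM + 1 and 24 with TPM + 0.1, and 0 with RLE scaling or without the minimum of 1 CPM. Ratios under 2-fold turned direction for Runx1 in LSC against GMP (0.054 with TMM, -0.053 with library size alone, -0.138 with TPM + 1 and -0.144 with TPM + 0.1) and for Fli1 in mAML against GMP (0.083, -0.116, -0.208 and -0.213). Leaving out 1 library moved the number of members called in each comparison, and the calls over all genes moved as well.

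Values that turned direction were not calls, except for Fli1 at 72 h. With TPM + 1 or TPM + 0.1, Fli1 was 0.205 or 0.21 at 24 h, 0.326 or 0.333 at 48 h and 0.207 or 0.211 at 72 h, and Gata2 was 0.276 or 0.28 at 24 h and 0.013 or 0.011 at 72 h. With library size alone, Gata2 was 0.159 at 24 h and Fli1 0.01 at 48 h. With the length trend removed, Runx1 was -0.241 at 24 h, and for 72 h against 8 h Erg was -0.017 and Fli1 -0.021. Library size alone moved the median of all genes by 0.33 at 8 h, and TPM + 1 by 0.41 at 8 h, 0.43 at 24 h, 0.56 at 48 h and 0.62 at 72 h. At 8 h, calls over all genes were 1987 higher and 2337 lower with TMM, 4078 and 1520 with library size alone, and 4859 and 1358 with TPM + 1. With 1 library left out, changes ran from -0.128 to 0.233 (Runx1, 24 h), -0.777 to 0.292 (Gata2, 24 h), -0.112 to 0.817 (Lmo2, 24 h), -0.314 to 0.74 (Gata2, 72 h against 8 h), -0.111 to 0.187 (Erg, the same) and -0.045 to 0.105 (Fli1, the same). The causes were not tested.

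Same-numbered replicates did not pair in the same way at all times. Their deviations correlated from -0.408 to 0.644 over 10 pairs of times, above 0.1 in 3. The correlation was 0.644 between 8 and 24 h, and -0.402 and -0.408 of these times with 72 h. A replicate block fits 1 shift for all times, so it cannot take up a difference that changes sign. With the replicate number as a block, Fli1 was called at 24 h (-0.31, edgeR adjusted p = 0.0354) and at 48 h (-0.341, edgeR adjusted p = 0.0227), and no other member call changed. Depth limits Tal1 in the single libraries, where mAML had 10 counts and LSC 3.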
